A study of Homo sapiens with 22 samples.

Results

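The genes described are the 8 diacylglycerol-related and atypical protein kinase C genes PRKCA, PRKCB, PRKCD, PRKCE, PRKCH, PRKCQ, PRKCI and PRKCZ, together with RASGRP1 and RASGRP3. Their products include the main intracellular receptors of phorbol 12-myristate 13-acetate (PMA), the agent used in the study. All deposited regions overlapping a gene's RefSeq span, extended by 20 kb on each side, were taken as its window. This gave 776 of the 409446 regions of the series, namely 204 of 95436 H3K27ac regions, 297 of 138731 Jun regions, 102 of 66168 CTCF regions and 173 of 109111 Rad21 regions. The windows follow gene positions, not measured levels.

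The libraries came from K562, an established human leukaemia line that grows as erythroid-like progenitor cells, treated with 25 nM PMA and collected after 0, 6 or 72 h. Chromatin of fixed cells was profiled with antibodies to H3K27ac, Jun and CTCF at all 3 times and to Rad21 at 0 and 72 h, in 22 libraries that form 11 groups of 2. The titles shorten the assay to CNR, read here as CUT&RUN, in which an antibody directs a nuclease to release the DNA beside its target. Every group is the same cell line without a named genetic change, the 0 h libraries are the reference, and no label ties the 2 libraries of a group to separate cultures, so p-values measure the spread between libraries, which may be technical.

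Protein kinases C are serine/threonine kinases that carry signals from phospholipases. The conventional kinases (PRKCA, PRKCB) need calcium and diacylglycerol, the calcium-independent ones (PRKCD, PRKCE, PRKCH, PRKCQ) need diacylglycerol alone, and the atypical ones (PRKCI, PRKCZ) respond to neither. Phorbol esters such as PMA replace diacylglycerol on the C1 domain, first activating the kinase and, on long exposure, often leading to its loss as a protein. RASGRP1 and RASGRP3 are exchange factors that load Ras with GTP and carry a C1 domain of the same kind. H3K27ac is an acetylated histone found at active promoters and enhancers, Jun is part of the AP-1 transcription factor on which phorbol ester signalling converges, CTCF binds insulator sites, and Rad21 is a subunit of cohesin, the ring complex that extrudes chromatin loops.

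RefSeq promoter sequences (GRCh38.p14, 250 bases before to 50 bases after an annotated start, read 5′ to 3′ on the gene's strand) were found for all 10 genes, in 18 windows. A set of 4 windows is shown: a pair of alternative RASGRP3 starts with opposite H3K27ac courses at 6 h, the PRKCE start and the PRKCQ start. The PRKCE window had the largest H3K27ac rise and the PRKCQ window the largest fall, mostly at regions away from these starts. The RASGRP3 starts lie at chr2:33436098-33436397 (start 1, plus strand) and chr2:33476399-33476698 (start 3, plus strand), the PRKCE start at chr2:45651425-45651724 (plus strand) and the PRKCQ start at chr10:6580597-6580896 (minus strand). Capitals mark GC boxes, the letters GGGCGG on either strand; where there are none, no searched motif was found.
RASGRP3 start 1: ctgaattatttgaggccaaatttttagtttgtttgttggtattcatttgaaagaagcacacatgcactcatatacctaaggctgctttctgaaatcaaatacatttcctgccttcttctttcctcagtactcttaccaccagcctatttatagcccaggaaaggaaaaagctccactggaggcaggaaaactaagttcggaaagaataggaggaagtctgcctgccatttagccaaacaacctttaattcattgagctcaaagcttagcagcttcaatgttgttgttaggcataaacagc
RASGRP3 start 3: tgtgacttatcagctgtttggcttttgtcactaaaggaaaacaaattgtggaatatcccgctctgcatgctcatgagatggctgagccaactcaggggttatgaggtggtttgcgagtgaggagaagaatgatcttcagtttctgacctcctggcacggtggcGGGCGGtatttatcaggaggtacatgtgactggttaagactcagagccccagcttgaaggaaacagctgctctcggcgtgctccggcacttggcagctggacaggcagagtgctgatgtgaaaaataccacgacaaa
PRKCE start: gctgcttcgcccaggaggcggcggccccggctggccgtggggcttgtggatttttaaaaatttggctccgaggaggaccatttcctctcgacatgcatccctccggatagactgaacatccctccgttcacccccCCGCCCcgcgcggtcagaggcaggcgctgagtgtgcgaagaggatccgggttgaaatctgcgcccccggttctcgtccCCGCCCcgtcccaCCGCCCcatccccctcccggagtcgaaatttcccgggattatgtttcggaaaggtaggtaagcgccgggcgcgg
PRKCQ start: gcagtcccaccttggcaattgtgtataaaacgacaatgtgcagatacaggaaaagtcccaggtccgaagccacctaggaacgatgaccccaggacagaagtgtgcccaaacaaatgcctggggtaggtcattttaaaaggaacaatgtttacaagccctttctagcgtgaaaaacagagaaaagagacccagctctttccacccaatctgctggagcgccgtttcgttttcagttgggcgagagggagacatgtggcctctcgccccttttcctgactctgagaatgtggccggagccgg
RASGRP3 start 1 had 39.7% G and C with 1 CpG, against 50.3% with 9 CpG at start 3, 51.3% with 11 CpG at PRKCQ and 64.7% with 30 CpG at PRKCE. The letters TGACTCA, the AP-1 element, occurred in none of the 18 windows on either strand, and in 4.95% of all 35116 RefSeq windows of the same length. The related element TGACGTCA occurred in 1 PRKCZ window and in 1.85% of all windows. The letters AGATAA, read by GATA factors, occurred in 1 RASGRP3 window and in 10.3% of all windows. The GC box occurred in 45% of all windows. A match is a description of the letters and says nothing of binding.

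The 22 libraries held between 2553677 (CTCF) and 27266241 (H3K27ac) counts in regions, and libraries of a group differed by more than counting noise. For K562 identity, the strongest H3K27ac region at TAL1, a transcription factor of blood progenitors, had 165 ± 3.3 CPM at 0 h (region counts scaled to library size; SD, n = 2) and that at KLF1, an erythroid transcription factor, had 68.8 CPM, whereas the liver gene ALB had 2.66 CPM and the B cell gene MS4A1 had no region. By 72 h KLF1 had fallen to 2.18 CPM. CPM were computed after TMM scaling, which assumes that most regions keep their level. That choice matters: the median log2 fold change of all H3K27ac regions at 72 h against 0 h was 0.18 with TMM and 0.42 when scaled to total counts. It was 0.79 under a peak-anchored scaling, whose factors come only from regions holding a deposited peak in all libraries of the antibody. For Jun the same medians were 0.17, 0.73 and 0.96, so results that change sign between these scalings are given with both values. In bulk chromatin, a mark present in more cells and more of the mark per cell cannot be told apart.

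Acetylation around these genes moved in opposite directions within the family. H3K27ac counts summed over a window rose at 72 h for PRKCE, RASGRP1, PRKCD, RASGRP3 and PRKCH and fell for PRKCQ, PRKCB and PRKCI (the last pair reversed to 0.19 and 0.11 on the log2 scale under peak-anchored scaling), while PRKCA and PRKCZ were not called. With edgeR and an adjusted p under 0.05, 8 of the 10 genes were called at 72 h against 0 h (5 higher, 3 lower), beside 87.8% of 40552 RefSeq genes summed the same way (35.7% higher, 52.1% lower). At 6 h, 5 were called (2 higher, 3 lower), beside 74.0% (28.8% higher, 45.2% lower). Between 6 and 72 h, 7 were called (4 higher, 3 lower), beside 72.5% (33.9% higher, 38.6% lower). The number of genes called was not above the background in any of the 3 comparisons. Without 0 h library 2, 3 genes were called at 6 h. Under peak-anchored scaling, the split was 8 higher and 1 lower at 72 h, 7 and 1 at 6 h, and 7 and 1 between 6 and 72 h. With total counts it was 6 higher and 3 lower, 6 and 1, and 4 and 4 in the same order.

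**Figure D1:**
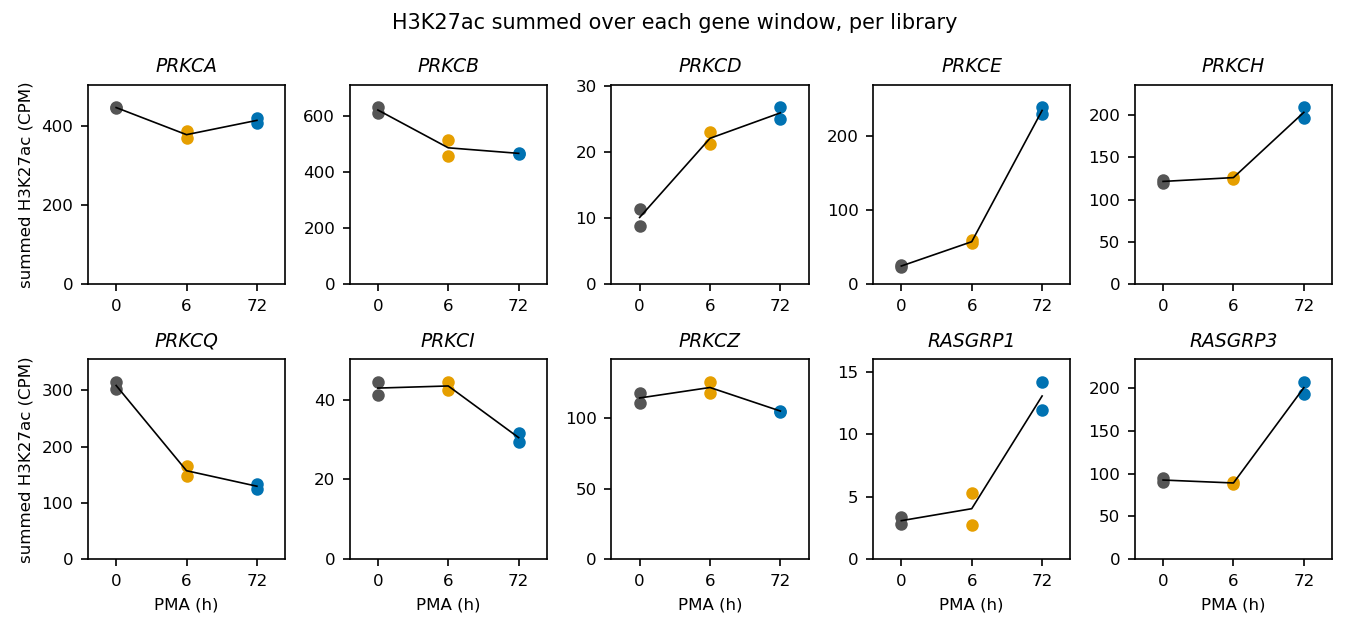
H3K27ac counts summed over the regions of each gene window (CPM, vertical axis from 0, its own scale per gene) against hours of PMA; points are single libraries and lines join the means of 2. PRKCE rises from 23.4 and 25.9 CPM at 0 h to 230 and 240 CPM at 72 h, and PRKCQ falls from 302 and 316 CPM to 125 and 134 CPM.

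Per kilobase of region, PRKCQ held the most H3K27ac of the 10 windows at 0 h, at 25.2 ± 0.81 CPM per kb (SD, n = 2). PRKCB (17.4 ± 0.47), PRKCI (14.6 ± 0.79) and PRKCA (13.1 ± 0.092 CPM per kb) followed. PRKCZ had 10.1 ± 0.46, RASGRP3 6.97 ± 0.28, PRKCH 5.80 ± 0.13 and PRKCD 2.17 ± 0.40 CPM per kb. PRKCE and RASGRP1 were lowest and not apart, at 1.14 ± 0.081 and 1.14 ± 0.15 CPM per kb. At 72 h the order had changed: RASGRP3 led at 15.1 ± 0.77 CPM per kb, and PRKCE, at 10.9 ± 0.33, overlapped PRKCQ (10.6 ± 0.55) and PRKCI (10.4 ± 0.54). PRKCD (5.58 ± 0.28) and RASGRP1 (4.83 ± 0.61 CPM per kb) were the lowest at 72 h.

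Single regions showed how each window changed. Of the 201 member H3K27ac regions tested (3 fell below the filter on low counts), 170 were called at 72 h against 0 h (117 higher, 53 lower), beside 81.5% of all H3K27ac regions (43.4% higher, 38.1% lower). At 6 h, 120 were called (85 higher, 35 lower), beside 58.6% (32.3% higher, 26.3% lower), and between 6 and 72 h 127 (81 higher, 46 lower), beside 63.8% (33.1% higher, 30.8% lower). The members' share of called regions was thus close to the background. Under peak-anchored scaling the split was 139 higher and 32 lower at 72 h and 108 and 19 at 6 h. With total counts it was 127 and 47, then 106 and 20. Their median log2 fold change at 72 h was 1.13, beside 0.18 over all regions tested. The windows differed among themselves. PRKCE had 30 of 32 tested regions higher and none lower, PRKCD 8 of 9 higher and none lower, and RASGRP3 11 of 14 higher and 1 lower. PRKCB had 14 higher and 24 lower of 46, and PRKCQ 3 higher and 8 lower of 14. PRKCA had 22 higher and 7 lower of 38 although its summed level was not called. Few member regions of any kind, called or not, lay at promoters. Of those tested, 8 overlapped a promoter window, 3 of them higher and 4 lower at 72 h, against 114 higher and 49 lower of 193 tested elsewhere.

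**Figure D2:**
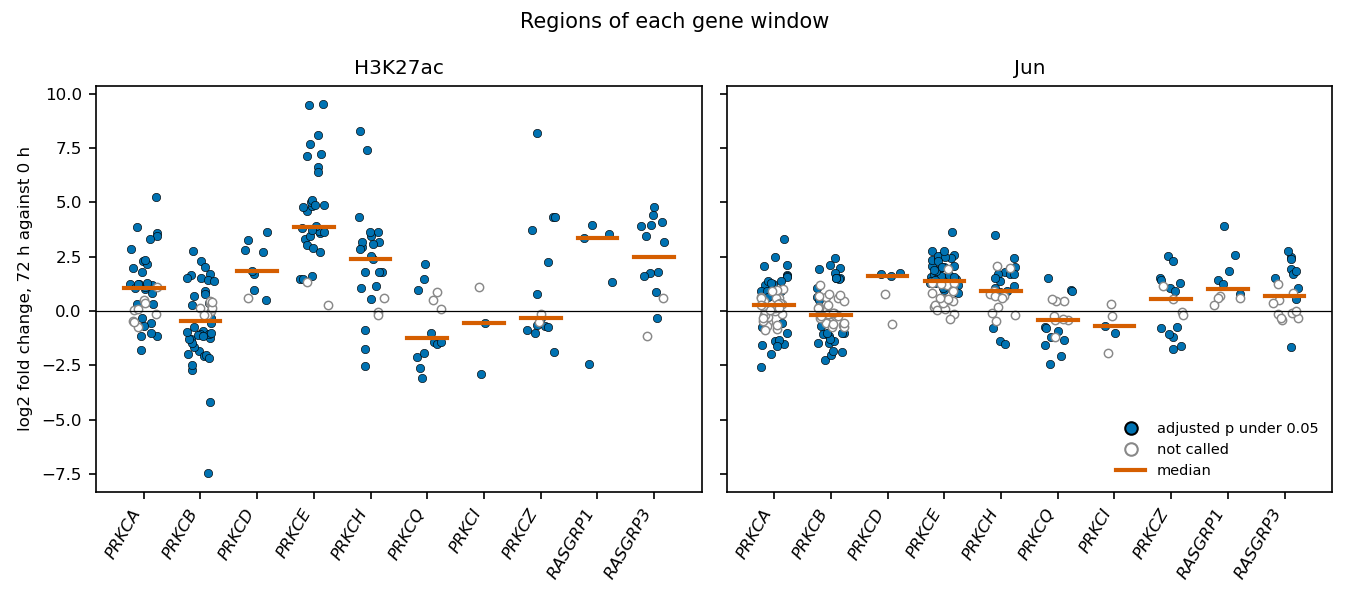
Log2 fold change at 72 h against 0 h of each tested H3K27ac (left) and Jun (right) region, by gene window; filled points have an edgeR adjusted p under 0.05, open points were not called, and orange lines are medians. The PRKCE median is 3.87 for H3K27ac, and PRKCB and PRKCQ have medians of −0.43 and −1.22.

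PRKCA and PRKCB, the conventional kinases, held the largest numbers of H3K27ac regions (39 and 46) and had both gains and losses of acetylation among them. The PRKCA window (gene ID 5578, chr17:66302613-66810743) summed to 444 and 448 CPM at 0 h, 369 and 386 CPM at 6 h and 408 and 420 CPM at 72 h. Its change of −0.24 ± 0.09 (log2, SE) at 6 h (adjusted p = 0.015) turned to 0.10 with total counts and 0.11 under peak-anchored scaling, and without a single 0 h library its adjusted p was 0.11 (library 1) or 0.15 (library 2). At 72 h it was −0.11 ± 0.09 (adjusted p = 0.23), −0.14 without 6 h library 2 (adjusted p = 0.042) and 0.50 under peak-anchored scaling. Inside it, a region at chr17:66348480-66350392, 46.8 kb past the gene start, had 104 and 105 CPM at 0 h, 47.7 and 54.2 CPM at 6 h and 46.4 and 46.7 CPM at 72 h. Both later pairs lay at less than 55 CPM, and the fall was −1.03 ± 0.10 at 6 h (adjusted p = 5.4e-09) and −1.17 ± 0.10 at 72 h (adjusted p = 1.4e-10).

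PRKCB (gene ID 5579, chr16:23835983-24220611), known for its role in B cell and myeloid signalling, summed to 608 and 632 CPM at 0 h and to 465 and 466 CPM at 72 h. The change of −0.41 ± 0.09 (adjusted p = 0.00019) turned to 0.19 under peak-anchored scaling. At 6 h it was −0.35 ± 0.09 (adjusted p = 0.0013), −0.02 with total counts and −0.32 without 0 h library 2 (adjusted p = 0.056). The steepest named falls were far inside the gene. A region at chr16:24116042-24117660, 280.9 kb past the start, went from 41.5 and 38.5 CPM to 10.4 and 7.92 CPM at 6 h and 2.68 and 1.75 CPM at 72 h. It was lower in both steps, with −2.14 ± 0.15 at 6 h (adjusted p = 5.5e-12) and −4.17 ± 0.17 at 72 h (adjusted p = 2.6e-17). A region at chr16:23880378-23881099 kept most of its level at 6 h, with 12.5 and 13.6 CPM before and 9.23 and 8.56 CPM after, and then fell to 1.88 and 2.15 CPM at 72 h (−2.69 ± 0.19, adjusted p = 1.1e-12). The strongest PRKCB region, chr16:23900143-23902661, dipped and came back: 119 and 124 CPM at 0 h, 52.2 and 68.7 CPM at 6 h, 92.6 and 101 CPM at 72 h. Its fall at 6 h was −1.0 ± 0.12 (adjusted p = 8.1e-08). The remaining 72 h difference, −0.33 ± 0.11, was 0.28 under peak-anchored scaling, and −0.36, −0.30 and −0.27 without 0 h library 1, 0 h library 2 and 72 h library 1 (adjusted p = 0.054, 0.11 and 0.11).

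PRKCE (gene ID 5581, chr2:45651279-46187990) went from 1 of the least acetylated windows per kilobase of region to a level per kilobase near that of PRKCQ. PKC epsilon, its product, is a calcium-independent kinase linked to cell adhesion and growth signalling. Its 33 regions summed to 23.4 and 25.9 CPM at 0 h, 59.5 and 55.4 CPM at 6 h and 230 and 240 CPM at 72 h. The groups did not overlap, and the rise was 1.22 ± 0.08 at 6 h (adjusted p = 8.3e-12) and 3.25 ± 0.08 at 72 h (adjusted p = 6.6e-21), a 9.52-fold difference called under all 13 alternative settings. Its strongest region, chr2:45668476-45670693, lies 17.9 kb past the start and had no peak in either 0 h library. It went from 2.22 and 2.32 CPM to 18 and 16.4 CPM at 6 h and 51.2 and 58.1 CPM at 72 h. These are rises of 2.92 ± 0.17 (adjusted p = 1.6e-13) and 4.59 ± 0.15 (adjusted p = 6.6e-19).

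Other PRKCE regions kept different times. At chr2:45743055-45744464, 92.1 kb past the start, there were 0.227 and 0.527 CPM at 0 h, 1.12 and 0.935 CPM at 6 h and 30.4 and 34.4 CPM at 72 h. Nearly all of this change came after 6 h, where it was 4.99 ± 0.21 (72 h against 6 h, adjusted p = 4.8e-16). The region at chr2:45812129-45813918, 161.3 kb past the start, was likewise late, with 0.682 and 1.95 CPM at 0 h, 1.4 and 2.21 CPM at 6 h and 18 and 19.8 CPM at 72 h (3.82 ± 0.25 at 72 h against 0 h). The promoter region, chr2:45650000-45651515, also overlaps promoters of the uncharacterised gene LOC102724965. It rose less, from 3.81 and 3.37 CPM at 0 h to 10.6 and 9.68 CPM at 72 h (1.50 ± 0.21, adjusted p = 5.8e-07). Its 6 h difference of 0.63 ± 0.23 (adjusted p = 0.023) was 0.22 without 6 h library 1 and 0.55 without 0 h library 2 (adjusted p = 0.48 and 0.12). The later step of 0.86 at this promoter (adjusted p = 0.00068) was 0.49 without 6 h library 2 (adjusted p = 0.054).

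**Figure D3:**
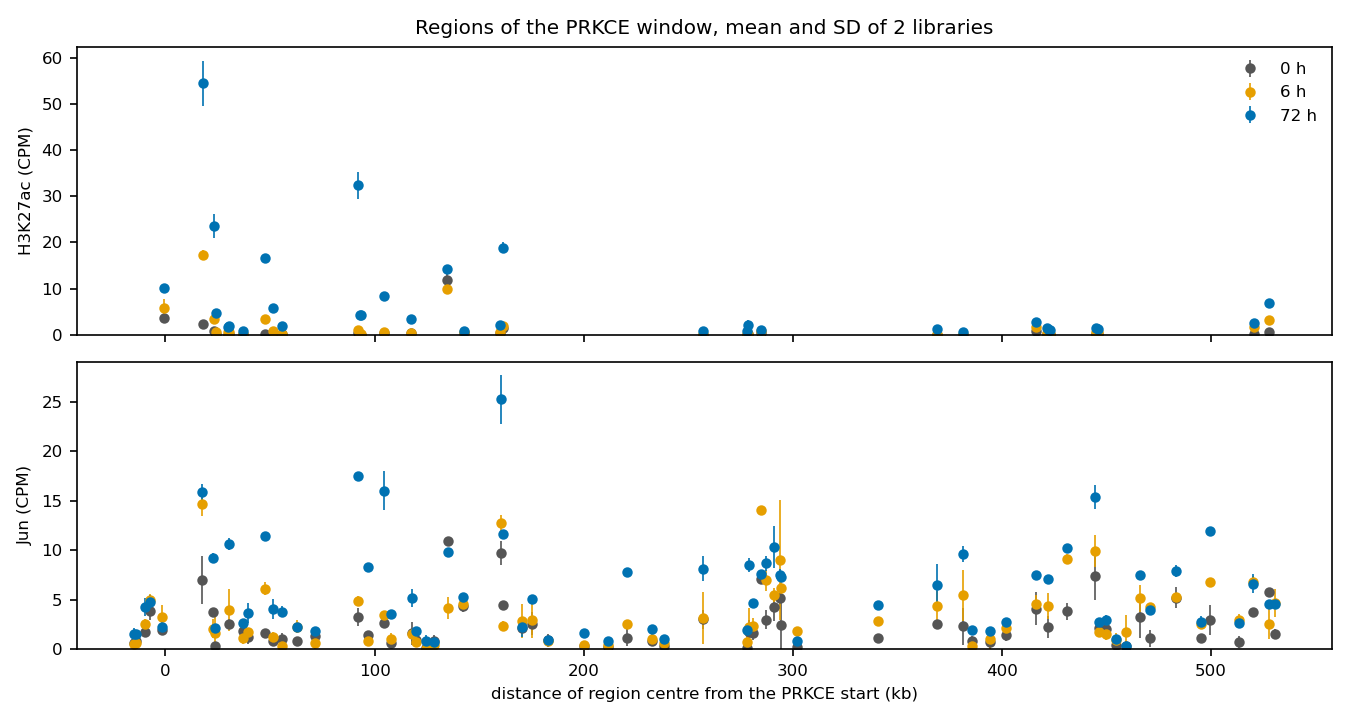
H3K27ac (top) and Jun (bottom) level of each region of the PRKCE window (CPM, mean with SD of 2 libraries) against the distance of its centre from the gene start in kb; grey 0 h, orange 6 h, blue 72 h. The tallest H3K27ac region lies 17.9 kb past the start, at 51.2 and 58.1 CPM after 72 h, and the tallest Jun region 160.3 kb past it.

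PRKCD (gene ID 5580, chr3:53161209-53192717), the kinase often tied to apoptosis and differentiation, had low acetylation that rose early. Its 9 regions summed to 11.4 and 8.8 CPM at 0 h, 23 and 21.2 CPM at 6 h and 25 and 26.9 CPM at 72 h. The rise was 1.13 ± 0.13 at 6 h (adjusted p = 8.1e-08) and 1.36 ± 0.13 at 72 h (adjusted p = 6.8e-10). The later step, 0.24, was not called (adjusted p = 0.079), but was 0.49 and called under peak-anchored scaling. The promoter region itself (chr3:53161134-53161810) stayed low, at 3.75 and 2.9 CPM at 0 h, 5.18 and 5.9 CPM at 6 h and 4.49 and 4.99 CPM at 72 h. Its 72 h difference of 0.51 ± 0.22 (adjusted p = 0.035) was 0.33 without 0 h library 2 (adjusted p = 0.25), 0.59 without 72 h library 1 (adjusted p = 0.056) and 0.43 without 72 h library 2 (adjusted p = 0.16), and was not called by DESeq2 (adjusted p = 0.11).

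PRKCH (gene ID 5583, chr14:61187468-61550976), the eta kinase, was level in sum at 6 h with TMM and higher at 72 h. Summed H3K27ac was 120 and 124 CPM at 0 h, 125 and 127 CPM at 6 h and 197 and 210 CPM at 72 h. The 72 h rise was 0.74 ± 0.07 (adjusted p = 9.4e-10), called under all 13 alternatives, while the 6 h difference of 0.05 (adjusted p = 0.52) was 0.39 with total counts, 0.40 under peak-anchored scaling and 0.15 with the count minimum of 50, called in each. Single regions had moved by then: of its 25 tested regions, 14 were higher and 5 lower at 6 h, and 19 higher and 3 lower at 72 h. The strongest region in its window, chr14:61561651-61563327, lies past the gene within LINC01303 and had 22 and 23.1 CPM at 0 h and 32.3 and 33.1 CPM at 72 h (0.54 ± 0.11, adjusted p = 8.2e-05).

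PRKCQ (gene ID 5588, chr10:6394097-6580646), the theta kinase best known from T cell receptor signalling, was the window with the clearest loss. Its 14 regions summed to 302 and 316 CPM at 0 h, 148 and 166 CPM at 6 h and 125 and 134 CPM at 72 h. Most of the fall was present at 6 h (−0.97 ± 0.08, adjusted p = 2.2e-10), and the 72 h difference of −1.25 ± 0.08 (adjusted p = 6.1e-13) kept its sign and call under all 13 alternatives, between −1.31 and −0.65. The further step from 6 to 72 h was −0.28 (adjusted p = 0.0039), −0.03 under peak-anchored scaling and −0.23 without 72 h library 1 (adjusted p = 0.071). A single region, chr10:6472141-6475045, 107.1 kb past the start, carried much of the window's signal at 0 h, 164 CPM of 302 in library 1 and 171 CPM of 316 in library 2. It dropped to 52.1 and 65.1 CPM at 6 h and stayed at 59.1 and 66 CPM at 72 h (−1.51 ± 0.12 and −1.42 ± 0.11). The promoter region, chr10:6580433-6582304, which also overlaps the antisense gene PRKCQ-AS1, fell later. It had 70.8 and 74.6 CPM at 0 h, 49.5 and 56.7 CPM at 6 h and 33.1 and 38.3 CPM at 72 h (−1.02 ± 0.11 at 72 h, adjusted p = 4.3e-09). At chr10:6514688-6516631, 65 kb past the start, the loss was deeper than at either of these. It went from 39 and 45.1 CPM to 11.9 and 14.5 CPM and then 6.8 and 6.99 CPM (−2.61 ± 0.13 at 72 h, adjusted p = 1.8e-15). Another PRKCQ region, chr10:6445701-6446504, was among the 3 member regions named for the largest falls at 6 h and at 72 h.

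The atypical kinases differed in sum at 72 h: PRKCI was called lower with TMM (−0.49 ± 0.09, adjusted p = 1e-05; 0.11 under peak-anchored scaling), and PRKCZ was not called. PRKCI (gene ID 5584, chr3:170222424-170305977), which acts with PAR proteins in cell polarity, held nearly all its H3K27ac in a promoter region at chr3:170221638-170223909. That region had 43.1 and 40.4 CPM at 0 h, 41.4 and 41.4 CPM at 6 h and 29.6 and 28.2 CPM at 72 h. The 72 h difference was −0.53 ± 0.10 (adjusted p = 5.4e-05) with TMM and 0.07 under peak-anchored scaling, so its direction rested on the scaling. At 6 h the value was −0.01 with TMM, 0.32 with total counts and 0.34 under peak-anchored scaling. PRKCZ (gene ID 5590, chr1:2048504-2185395), the zeta kinase of the same polarity complex, summed to 111 and 118 CPM at 0 h, 126 and 118 CPM at 6 h and 106 and 105 CPM at 72 h, a change not called at 72 h (−0.12 ± 0.07, adjusted p = 0.11). It was called without 6 h library 1 or 2 (−0.13 and −0.15, adjusted p = 0.047 and 0.018) and was 0.48 under peak-anchored scaling. Within it, a region at chr1:2088227-2089474 appeared from almost no signal, with 0.227 and 0.527 CPM at 0 h, 3.78 and 3.05 CPM at 6 h and 7.96 and 7.65 CPM at 72 h (4.33 ± 0.32, adjusted p = 4.6e-12). The strongest region of its window lies over the neighbouring gene FAAP20, not over PRKCZ.

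RASGRP1 (gene ID 10125, chr15:38488103-38564814), a Ras exchange factor prominent in lymphocytes, started with almost no acetylation. Its 5 regions summed to 2.78 and 3.37 CPM at 0 h, 5.32 and 2.76 CPM at 6 h and 14.2 and 11.9 CPM at 72 h. The 6 h libraries overlapped those at 0 h (0.34 ± 0.27, adjusted p = 0.26; 0.76 without 6 h library 2, adjusted p = 0.014; −0.16 without 6 h library 1, adjusted p = 0.63). At 72 h the rise was 2.08 ± 0.24 (adjusted p = 1.6e-08). Its strongest region, chr15:38531153-38532155, lies inside the gene 33.2 kb from the start and went from 0.568 and 0.263 CPM at 0 h to 7.38 and 5.64 CPM at 72 h (3.97 ± 0.37, adjusted p = 3.4e-10).

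RASGRP3 (gene ID 25780, chr2:33436348-33564731), an exchange factor for Ras and Rap, showed opposite courses at 2 of its starts, whose sequences are given above. The region over start 1, chr2:33436151-33438433, had 57.2 and 54.9 CPM at 0 h, 19.7 and 17.4 CPM at 6 h and 42.1 and 47 CPM at 72 h. It fell by 1.60 on the log2 scale at 6 h (SE 0.12, adjusted p = 9.7e-12) and rose again by 1.27 ± 0.11 from 6 to 72 h (adjusted p = 6.1e-10). What remained at 72 h, −0.33 ± 0.10 (adjusted p = 0.0058), was 0.27 under peak-anchored scaling, −0.31 without 0 h library 1 and −0.25 without 72 h library 1 (adjusted p = 0.062 and 0.088). The region over start 3, chr2:33475914-33476682, rose instead, from 5.91 and 4.11 CPM to 12.7 and 13.5 CPM at 6 h and 17.7 and 17.5 CPM at 72 h (1.39 ± 0.17 and 1.82 ± 0.16, adjusted p = 1.4e-07 and 1.6e-10). The next region downstream, chr2:33476859-33479407, was the strongest of the window by 72 h, with 23.3 and 21.8 CPM at 0 h, 40.3 and 46.7 CPM at 6 h and 72.1 and 80.5 CPM at 72 h (1.76 ± 0.11, adjusted p = 2.5e-13). Summed over its 14 regions, RASGRP3 was level at 6 h (95 and 89.9 CPM, then 88 and 90 CPM) and 2.17-fold higher at 72 h (193 and 208 CPM, 1.12 ± 0.07, adjusted p = 4.3e-13); at 6 h the sum was −0.05 with TMM and 0.28, called, with total counts.

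**Figure D4:**
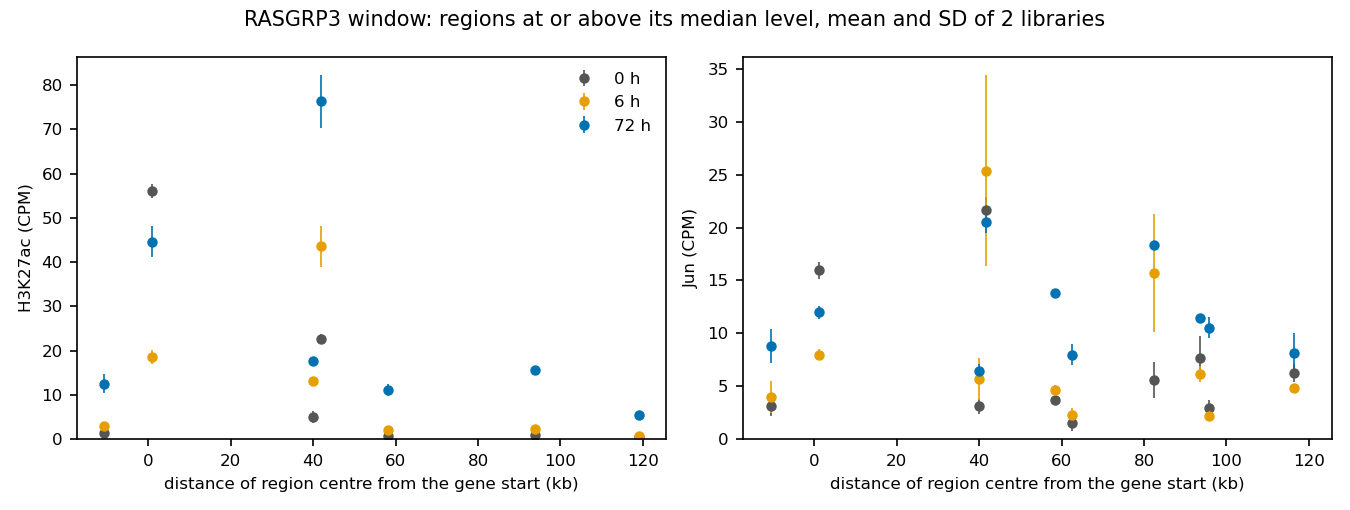
H3K27ac (left) and Jun (right) level (CPM, mean with SD of 2 libraries) of RASGRP3 regions at or above the window's median level, against the distance of the region centre from the gene start in kb; grey 0 h, orange 6 h, blue 72 h. At start 1 H3K27ac is 57.2 and 54.9 CPM at 0 h and 19.7 and 17.4 CPM at 6 h, and just past start 3 it rises to 72.1 and 80.5 CPM at 72 h.

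Summed Jun signal at 72 h was called higher for PRKCE, RASGRP1, RASGRP3, PRKCH and PRKCD and lower for PRKCQ and PRKCI, whose sign turned under both other scalings. Of 278 member Jun regions tested, 159 were called at 72 h against 0 h (113 higher, 46 lower), beside 53.7% of all Jun regions (28.0% higher, 25.7% lower). At 6 h, 81 were called (53 higher, 28 lower), beside 25.3% (13.1% higher, 12.2% lower), and between 6 and 72 h 63 (41 higher, 22 lower), beside 26.2% (12.7% higher, 13.4% lower). The share called in either direction was near the background too, 57.2% of tested member regions at 72 h against 0 h. By direction, 40.6% were higher and 16.5% lower with TMM. The 72 h split was 162 higher and 23 lower with total counts and 177 higher and 12 lower under peak-anchored scaling. At 6 h these were 68 and 19, then 67 and 20, and between 6 and 72 h 80 and 4, then 118 and 2. By summed counts, 7 of the 10 genes were called at 72 h (5 higher, 2 lower), beside 72.5% of genes (27.2% higher, 45.4% lower). At 6 h 3 were called (2 higher, 1 lower), beside 46.1% (19.0% higher, 27.1% lower), and between 6 and 72 h 6 (4 higher, 2 lower), beside 50.9% (17.4% higher, 33.4% lower). None of the genes was called lower by Jun under total counts or peak-anchored scaling, with 8 or 9 higher at 72 h. Leaving out 1 library changed some counts: without 0 h library 2, 45 regions and 1 gene were called at 6 h, without 72 h library 2, 95 regions at 72 h against 0 h, and without 72 h library 1 or 2, 20 or 23 regions between 6 and 72 h, with 3 genes in the latter case. The share of Jun counts on the mitochondrial chromosome was 24.0% and 27.7% at 0 h, 21.3% and 18.1% at 6 h, then 9.07% and 8.58% at 72 h, and the 72 h libraries were deeper (17245043 and 18883962 counts against 7952946 and 8600736 at 0 h). The part of this difference in the Jun results was not tested.

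PRKCE and RASGRP1 had the largest summed Jun rises at 72 h, and their values were not apart. The 69 Jun regions of PRKCE summed to 160 and 171 CPM at 0 h, 244 and 233 CPM at 6 h and 405 and 396 CPM at 72 h (0.52 ± 0.12 and 1.27 ± 0.11, adjusted p = 0.0006 and 2.7e-10). Of its 63 tested regions, 42 were higher and none lower at 72 h. The PRKCE region with most Jun, chr2:45811297-45812657, had 8.86 and 10.6 CPM at 0 h, 13.3 and 12.2 CPM at 6 h and 26.9 and 23.5 CPM at 72 h (1.38 ± 0.20, adjusted p = 8.9e-06). It overlaps the late H3K27ac region named above. RASGRP1, RASGRP3 and PRKCH also gained Jun at 72 h, by 1.22 ± 0.14, 0.65 ± 0.11 and 0.62 ± 0.10 in summed counts. RASGRP1 went from 20.8 and 20.6 CPM to 24.2 and 16.2 CPM and then 48.1 and 48.5 CPM, all of its gain after 6 h. PRKCD rose from 11.5 and 12.1 CPM to 15.9 and 19.2 CPM (0.58 ± 0.17, adjusted p = 0.0043), a value of 0.34 without 72 h library 2 (adjusted p = 0.22). The sums of PRKCQ and PRKCI fell with TMM (−0.50 ± 0.10 and −0.52 ± 0.13), but were 0.06 and 0.04 with total counts and 0.29 and 0.26 under peak-anchored scaling.

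Single Jun regions moved both ways. PRKCA was not called in sum (−0.09, adjusted p = 0.49; −0.19 without 6 h library 2, adjusted p = 0.038; 0.70 under peak-anchored scaling), yet chr17:66514082-66514704 went from 2.18 and 2.14 CPM at 0 h to 16.5 and 22.7 CPM at 6 h and 11.8 and 12.8 CPM at 72 h (3.19 ± 0.29 and 2.50 ± 0.28). In PRKCB, whose sum was −0.21 (adjusted p = 0.11), or 0.58 under peak-anchored scaling, a region at chr16:24135652-24136323 lost Jun at once, from 20.2 and 22 CPM to 3.16 and 4.36 CPM at 6 h and 5.68 and 6.13 CPM at 72 h (−2.46 ± 0.27 and −1.83 ± 0.21). Another PRKCB region, chr16:24116497-24117587, lies within the H3K27ac region that was nearly lost and fell from 17.4 and 23.3 CPM to 5.02 and 4.95 CPM at 72 h (−2.03 ± 0.24, adjusted p = 6.6e-07). In PRKCH the strongest Jun region, chr14:61524481-61525839, rose from 10.2 and 9.42 CPM to 17.4 and 24.3 CPM at 6 h and 24.7 and 25.8 CPM at 72 h (1.1 ± 0.23 and 1.36 ± 0.21). At RASGRP3 start 3, Jun at chr2:33476204-33476623 was 2.61 and 3.57 CPM at 0 h and 6.91 and 5.88 CPM at 72 h (1.04 ± 0.31, adjusted p = 0.0071). That call did not hold by DESeq2 (adjusted p = 0.086), and the value was 0.84, 0.93 and 1.07 without 0 h library 1, 72 h library 1 and 72 h library 2 (adjusted p = 0.08, 0.091 and 0.051).

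H3K27ac and Jun changed in the same direction at most overlapping regions where both were called. Of the 201 tested member H3K27ac regions, 153 overlapped a Jun region by at least 1 bp. At 72 h, 66 lay on a Jun region that was higher, and 64 of these were higher and none lower in H3K27ac, with a median of 3.53. The 32 on a Jun region that was lower had 4 higher and 22 lower, with a median of −0.93. The 48 without a Jun region had 18 higher and 22 lower. Over all H3K27ac regions of the series the counts ran the same way: on a Jun region called higher at 72 h, 96.7% of 21409 were higher and 0.411% lower (median 3.64), on one called lower 9.50% of 22851 were higher and 71.1% lower (median −0.85), and without a Jun region 22.9% and 55.3% of 27017. At 6 h, 31 of 35 were higher and 1 lower on rising Jun regions, and 2 of 23 higher and 16 lower on falling ones, beside 85.6% and 1.84% of 11351, and 7.16% and 62.0% of 12690, in the series. Across the 153 overlapping regions the fold changes correlated with r = 0.83 at 72 h and 0.63 at 6 h, a description over regions that share libraries and gene windows.

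**Figure D5:**
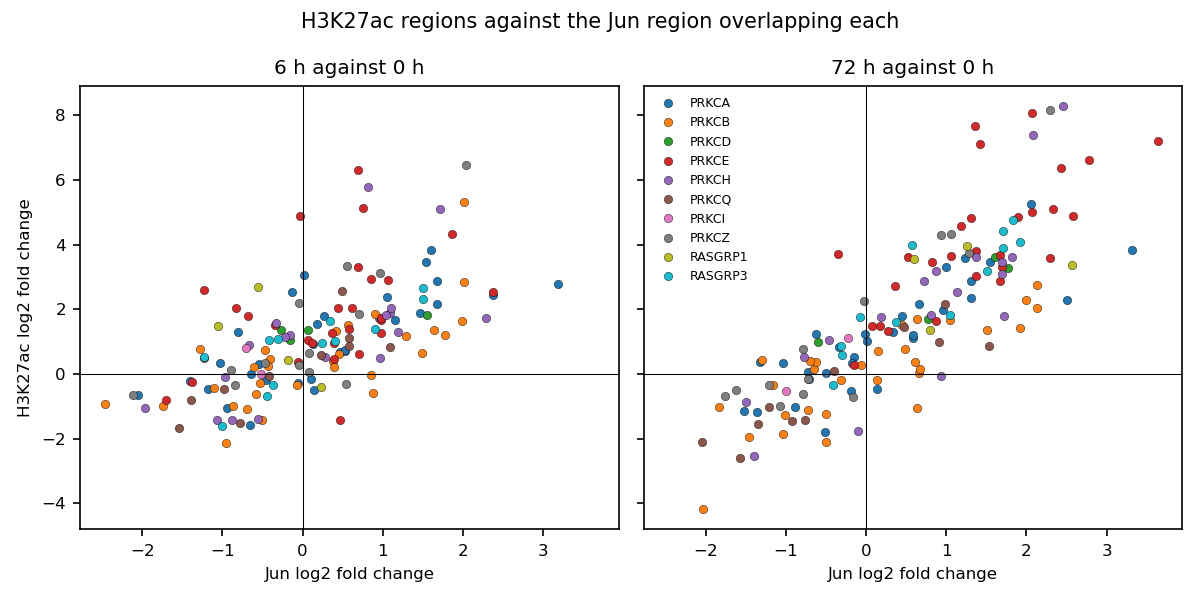
Log2 fold change of each member H3K27ac region (vertical) against that of the Jun region overlapping it (horizontal), at 6 h (left) and 72 h (right) against 0 h, coloured by gene. The 66 regions on Jun regions called higher at 72 h have a median H3K27ac change of 3.53, and the 32 on regions called lower have −0.93.

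Deposited peaks, called by the authors in each library separately, also became more numerous in these windows. Regions with an H3K27ac peak in both libraries numbered 45 at 0 h, 42 at 6 h and 88 at 72 h. Between 0 and 72 h, 48 regions went from no peak in either library to a peak in both, 6 went the other way and 36 had a peak in both libraries at 0 h and at 72 h. PRKCE gained 10 of these 48, PRKCA 8, and PRKCB, PRKCH and RASGRP3 7 each. For Jun the numbers were 41, 34 and 172, with 112 regions gained and 2 lost, 37 of the gains in PRKCE. Over the whole series peaks were also more numerous, with H3K27ac going from 42125 and 42852 per library at 0 h to 65267 and 66147 at 72 h, and Jun peaks from 31637 and 35072 to 92329 and 99102. The windows held 0.159% and 0.156% of the H3K27ac peaks at 0 h and 0.208% and 0.195% at 72 h, and 0.186% and 0.180%, then 0.218% and 0.223%, of the Jun peaks. Peak numbers depend on depth, and the 72 h libraries of both antibodies were the deepest. The part of depth in these counts was not tested.

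Cohesin changed at fewer regions. The mitochondrial share of Rad21 counts was 34.1% and 24.8% at 0 h and 30.6% and 30.1% at 72 h, and its part in the results was not tested. Of 143 member Rad21 regions tested, 32 were called at 72 h against 0 h (23 higher, 9 lower), beside 23.3% of all Rad21 regions (15.4% higher, 7.91% lower). Without 72 h library 1 or 2, 14 or 16 were called. The members' share, 22.4%, is close to the background. DESeq2 called 8, all higher, and scaling to total counts gave 21 higher and 17 lower. By summed counts 3 genes were called (2 higher, 1 lower), beside 27.3% of genes (14.0% higher, 13.4% lower), and 1 without either 72 h library. PRKCE rose from 66.2 and 70 CPM to 132 and 124 CPM (0.91 ± 0.15, adjusted p = 3e-06), called in all 10 alternatives. PRKCH (0.38 ± 0.15, adjusted p = 0.044) and PRKCQ (−0.50 ± 0.15, adjusted p = 0.0083) were each called in 5 of 10. PRKCQ was −0.17, −0.43 and −0.45 without 0 h library 1, 72 h library 1 and 72 h library 2 (adjusted p = 0.52, 0.44 and 0.4), and PRKCH was 0.44 and 0.45 without 72 h library 1 and 2 (adjusted p = 0.4 and 0.37).

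Named Rad21 gains lay within regions described above. At chr2:45668873-45669468, within the strongest PRKCE H3K27ac region, Rad21 went from 2.29 and 1.64 CPM to 10.5 and 11.5 CPM (2.45 ± 0.38, adjusted p = 8.1e-05). At chr2:45743309-45744010, within the late PRKCE region, it went from 0.152 and 1.02 CPM to 9.24 and 6.58 CPM (3.85 ± 0.58, adjusted p = 6.4e-05). At chr17:66514297-66514674, inside the PRKCA Jun region that rose at 6 h, it went from 0.762 and 0.614 CPM to 7.07 and 6.03 CPM (3.20 ± 0.53, adjusted p = 0.00017). In the late PRKCE region and the PRKCA region the 0 h levels lay near the floor, so the fold sizes are uncertain. Named Rad21 falls were at chr14:61252680-61253181 in the PRKCH window, chr17:66296222-66296714 in the PRKCA window and chr10:6515205-6515657 in the PRKCQ window. The PRKCQ fall lies within chr10:6514688-6516631, the H3K27ac region described above as lower at 72 h. Of the 51 Rad21 regions on H3K27ac regions called higher, 19 were higher and none lower, and of the 29 on regions called lower, none was higher and 5 were lower. Over the series 49.7% of 17002 and 1.81% of 21658 such regions were higher, and 0.447% and 15.6% lower. Of the 83 Rad21 regions without an overlapping CTCF region, 13 were higher and 5 lower, beside 15.6% and 8.51% of 45280.

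By summed CTCF counts edgeR called 0 of the 10 genes in any of the 3 comparisons, beside 4.26% of genes at 6 h against 0 h (2.80% higher, 1.47% lower), 19.7% at 72 h against 0 h (6.85% higher, 12.8% lower) and 5.94% at 72 h against 6 h (1.81% higher, 4.13% lower). At an unadjusted p under 0.05 the numbers were 1, 3 and 1, and DESeq2 called 0, 0 and 0; at 72 h against 0 h, 3 were called higher under peak-anchored scaling. PRKCQ had the most CTCF per kilobase at 0 h, 39.3 ± 3.0 CPM per kb, and came closest to a call, with 170 and 189 CPM at 0 h, 146 and 165 CPM at 6 h and 134 and 133 CPM at 72 h (−0.42 ± 0.16, adjusted p = 0.059). Without either 6 h library that difference was called (−0.42 and −0.41, adjusted p = 0.0054 and 0.0082).

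Of 88 member CTCF regions tested, 1 was called at 6 h against 0 h, beside 2.65% of all CTCF regions (2.33% higher, 0.325% lower), 5 at 72 h against 0 h (4 higher, 1 lower), beside 6.79% (4.07% higher, 2.72% lower), and 1 at 72 h against 6 h, beside 2.18% (0.451% higher, 1.73% lower). Without 6 h library 1 or 2, 12 or 13 were called at 72 h against 0 h. The following are named because they are few, after their values were seen. The 6 h region lies in RASGRP3 at chr2:33545600-33545858 and was transient, with 1.51 and 2.5 CPM at 0 h, 11.9 and 14.1 CPM at 6 h and 2.28 and 2.64 CPM at 72 h (2.71 ± 0.52, adjusted p = 0.0045, then −2.37 ± 0.46, adjusted p = 0.0083). It is also the region called between 6 and 72 h, rests on 37 and 35 counts at 6 h, had no deposited peak, and lost its first call without 0 h library 1 and its second without 72 h library 1. The region called lower at 72 h lies 12.2 kb before PRKCA at chr17:66290086-66290663 and had 13.1 and 25.7 CPM at 0 h and 5.02 and 5.42 CPM at 72 h (−1.86 ± 0.37, adjusted p = 0.011). Without 0 h library 2, 72 h library 1 or 72 h library 2 it was −1.29, −1.81 and −1.92 (adjusted p = 0.17, 0.053 and 0.064). In PRKCZ, chr1:2132163-2132805 had 16.9 and 11.8 CPM at 0 h and 36.7 and 26.8 CPM at 72 h (1.12 ± 0.28, adjusted p = 0.028), a call lost without any single 0 or 72 h library (0.90 to 1.42, adjusted p = 0.075 to 0.25). The other 3 lie in PRKCA, PRKCB and RASGRP1, had at most 3 counts in each 0 h library, and each lost its call without any single 0 or 72 h library.

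The rest of the pathway was described through 41 further genes of diacylglycerol and PMA signalling, each by its H3K27ac region of highest mean level. The mean is over all libraries, those at 72 h included, so the choice uses the levels compared. Other regions of these genes are not described. At 72 h 9 were higher, 30 lower and 2 not called, with a median of −0.80. Of all H3K27ac regions 43.4% were higher and 38.1% lower, with a median of 0.18. That background holds weak regions too, so it is not matched to the list for level. With only regions of a mean count of at least 50 its median was −0.06, still without matching for level. Under peak-anchored scaling 10 of the 41 genes were higher and 16 lower, with a median of −0.19. All 12 genes of the downstream kinase cascade were called lower with TMM, with a median of −1.06. With total counts 11 were lower and none higher, and under peak-anchored scaling 7 were lower and 1 higher, with a median of −0.45. Of the 7 diacylglycerol kinases, which remove the lipid that PMA mimics, 2 were higher and 5 lower (2 and 3 under peak-anchored scaling). Of the chosen regions, that of DGKG had the largest rise, from 0.43 ± 0.29 CPM at 0 h to 4.83 ± 0.49 CPM at 6 h and 82.6 ± 5.2 CPM at 72 h (7.54 ± 0.21). The Jun region of DGKG, chosen likewise, also rose (3.77 ± 0.25). DGKE rose from 12.1 to 45.8 CPM (1.92). Of the 9 genes listed as other C1 domain receptors and kinases, among them UNC13D, whose product lacks that domain, 3 were higher and 5 lower (3 and 2 under peak-anchored scaling), with PRKD1, a kinase activated by protein kinase C, down from 12.7 CPM at 0 h to 3.23 and 0.345 CPM (−5.18 ± 0.27 at 72 h). SOS1, a Ras exchange factor without a C1 domain, fell from 74.0 ± 1.9 CPM to 28.0 CPM at 6 h and 4.63 ± 0.52 CPM at 72 h (−4.00 ± 0.13). Of the 6 phospholipases 1 was higher, PLCB2, from 7.59 to 26.7 CPM (1.82), and 5 were lower (2 under peak-anchored scaling). For Jun, 7 of the 41 genes were higher and 22 lower at 72 h, and 12 higher and 8 lower under peak-anchored scaling. Of all Jun regions, weak ones included, 28.0% were higher and 25.7% lower, again without matching for level.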

How the data were processed

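Libraries were assigned to groups from their titles. The genes, lists and tests were chosen with earlier results of these data known. The authors deposited region tables with whole-number read counts per region and library, and peak lists per library in narrowPeak form with the authors' −log10 q-value. The submitters' processing notes name Trim Galore 0.4.3, BWA 0.7.17, SAMtools 1.9, deepTools 3.0.1, MACS2 and bedtools 2.26, and both hg19 and hg38 without a role; contig names are those of GRCh38, so RefSeq GRCh38.p14 spans were used. Region starts were converted to 1-based. Exons and introns were not used here. A marker gene of the K562 check is not reported here.

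Deposited counts of each antibody entered edgeR 4.0.16 under R 4.3.3 (filterByExpr, TMM, quasi-likelihood tests over all its time points, no replicate block), with p-values adjusted by Benjamini-Hochberg over all regions; a call is an adjusted p under 0.05. Counts summed per gene window were tested likewise over all RefSeq genes, whose windows can share regions, with the region factors. The 3 contrasts share libraries. Regions of highest mean CPM were chosen over all libraries of the antibody, so that choice uses the levels compared. The fits were tested on simulated counts. Named regions were, for each gene and antibody, the one of highest mean CPM and, for H3K27ac and Jun, those at a promoter, and, for each antibody and contrast, the 3 member regions that rose most and the 3 that fell most (log2) among those called and at or above the members' median CPM. DESeq2 1.42.0, other scalings, filters and leaving out each library were alternatives. The authors' deposited log2 fold changes, adjusted p-values and peak fold enrichment (a ratio) were not used. Depth sets precision: total counts were 12634261 to 27266241 for H3K27ac, 4766421 to 18883962 for Jun, 2553677 to 6068421 for CTCF and 4398797 to 7285286 for Rad21.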

Additional observations from a re-analysis of the deposited data

How the results depend on the processing

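Limits: groups of 2 libraries give a wide error, depth in CTCF and Rad21 was the lowest, and H3K27ac and Jun levels at 72 h depend on the scaling. Of the tests of named regions, 2043 values under alternatives kept their direction and side of the threshold, 107 lost a call, 24 gained one and 12 reversed.

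With only regions of a mean count of at least 50, the numbers of member regions called were 97 (72 h against 0 h) and 77 (72 h against 6 h) for H3K27ac, 95 for Jun at 72 h against 0 h, 0, 1 and 0 for CTCF at 6 h against 0 h, 72 h against 0 h and 72 h against 6 h, and 2 for Rad21, with fewer regions tested; by summed CTCF counts 2 genes were called at 72 h against 0 h. DESeq2 called 46 Jun regions at 6 h against 0 h and 29 at 72 h against 6 h, 1 CTCF region at 72 h against 0 h, 8 Rad21 regions and 1 gene by Rad21. Peak-anchored scaling gave 8 genes by H3K27ac at 6 h against 0 h, 120 Jun regions and 0 CTCF regions at 72 h against 6 h, and 3 genes by CTCF at 72 h against 0 h. Total counts scaling gave 2, 12 and 3 CTCF regions in the 3 contrasts. The fit of only the 2 time points gave 15 CTCF regions and 2 genes by CTCF at 72 h against 0 h, and no filter gave 1 gene by Rad21. The cause was not tested.

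Deviations of same-numbered libraries correlated weakly, between −0.0084 and 0.124, and the numbers were not taken as pairs. For CTCF the correlations were all positive: 0.124 (0 and 6 h), 0.0796 (0 and 72 h) and 0.103 (6 and 72 h). Over all CTCF regions tested, a replicate block raised the number called at 72 h against 0 h from 3950 to 7144. Whether same-numbered CTCF libraries share an origin was not tested. Among the members, the block gave 8 CTCF regions at 72 h against 0 h. By summed CTCF counts it gave 1 gene at 72 h against 0 h and 1 at 72 h against 6 h. Other member counts stayed within 1.5 times.

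Leaving out 1 library at a time gave 3 to 6 genes by H3K27ac at 6 h against 0 h. For Jun it gave 45 to 69 regions at 6 h against 0 h, 95 to 175 at 72 h against 0 h and 20 to 65 at 72 h against 6 h, and 1 to 3 genes at 6 h against 0 h and 3 to 9 at 72 h against 6 h. For CTCF it gave 0 to 1, 0 to 13 and 0 to 4 regions in the 3 contrasts, and 0 to 2 genes at 72 h against 0 h and 0 to 1 at 72 h against 6 h. For Rad21 it gave 14 to 39 regions and 1 to 4 genes. The lowest Jun and Rad21 counts came without a 72 h library, except at 6 h against 0 h, where they came without 0 h library 2; the highest CTCF counts came without a 6 h library.

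The mean number of peaks per library with a −log10 q of at least 10 was 36, 24.5 and 64.5 for H3K27ac at 0, 6 and 72 h, 27.5, 24.5 and 129.5 for Jun, and 36, 19 and 30 for CTCF. Rad21 had 17 at 0 h and 11.5 at 72 h. The mean number of H3K27ac peaks at 0 h was 67 in either library.

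The 12 reversals of named regions came under other scalings. Under peak-anchored scaling, the H3K27ac region at the PRKCI promoter was 0.34 at 6 h and 0.074 at 72 h against 0 h (0.32 at 6 h with total counts). Under it, at 72 h against 0 h, the strongest H3K27ac region was 0.28 for PRKCB and 0.27 for PRKCZ, the RASGRP3 start 1 was 0.27, and the strongest Jun region was 0.62 for PRKCA, 0.72 for PRKCB, 0.032 for PRKCQ, 0.0055 for PRKCZ and 0.71 for RASGRP3. The strongest H3K27ac region of PRKCH was 0.25 at 72 h against 6 h.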
